A study of Mus musculus with 12 samples.

Results

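The 8 genes described here mark the mural cells of brain vessels. Of these, 5 are used as markers of pericytes, namely Pdgfrb, Vtn, Rgs5, Abcc9 and Anpep, and 3 are contractile genes of arterial smooth muscle, namely Acta2, Myh11 and Tagln. They were chosen by symbol, and all 8 were found among the 38924 gene identifiers of the deposited tables. Whole brains of mice aged 6 weeks underwent RNA-seq of polyadenylated RNA, 1 library per mouse and 3 mice in each of 4 groups. The groups were wild type (WT) and mice homozygous for an allele of the nuclear receptor gene Rorb, labelled Rorbh1/h1 (h1), Rorbh2/h2 (h2) and Rorbh4/h4 (h4), which belong to the high stepper series. WT and h1 were on C57BL/6J, h2 on B6(Cg)-Tyrc-2J/J, which carries an albino Tyr allele, and h4 on B6.129S7-Il1r1tm1Imx/J, which carries a targeted Il1r1 allele. For h2 and h4, background and Rorb allele therefore cannot be told apart. The comparisons ask how each allele alters the brain transcriptome.

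Pericytes lie on capillaries within the basement membrane of the endothelium, and smooth muscle cells wrap arterioles and arteries. Endothelial cells secrete PDGF-B, which recruits pericytes through the receptor PDGFRβ. Pericytes help to maintain the blood-brain barrier, while smooth muscle contracts to set vessel diameter through an actin and myosin machinery. Genes of that machinery are switched on by serum response factor (SRF) with its cofactors of the myocardin family, which act at a DNA element called the CArG box.

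Libraries held 14513825 to 24694178 expected counts, and the shallowest was h2 replicate 1. Levels are given in CPM, the usual scaling of counts to the library total, here adjusted by trimmed mean of M-values (TMM) factors. Deposited TPM values, which also divide by transcript length, are used to set one gene against another. Per length, Vtn and Rgs5 were the most abundant of the 8, with 82.7 and 72.9 TPM on average over the 12 libraries. Acta2 (12.9 TPM), Tagln (10.2) and Pdgfrb (9.23) formed a middle group, and Myh11 (3.86), Abcc9 (3.45) and Anpep (3.18) were lowest. All 8 passed the low-count filter and were tested, the smallest single value being 80 counts for Anpep. The brain label held, with Snap25, Syt1 and Rbfox3 together at 3169 to 3401 CPM. Of 5 skeletal and cardiac muscle markers, Actc1, Ckm and Tnnt3 were too low to be tested, and the other 2 were tested. Xist, which is transcribed from the inactive X chromosome of females, was above 100 CPM in all 3 WT libraries but in 1 h1, 1 h2 and 2 h4 libraries, so the sexes were unequally spread.

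In h4 brains, 2 of the 8 genes rose against WT, none fell and 6 did not pass the test, at an adjusted p under 0.05 by edgeR's quasi-likelihood test. The 2 were Myh11, the smooth muscle myosin heavy chain, up 1.29-fold, and Vtn, the secreted matrix protein vitronectin, up 1.15-fold. Over all 16493 genes tested, 4.55% were called in this comparison and 1.64% were called higher. The libraries of 3 members did not overlap with WT, all higher in h4, against 21.2% of all genes in either direction and 10.8% in that direction. Myh11, Vtn, Acta2 and Tagln, 4 of 8, had an unadjusted p under 0.05, against 17.6% of all genes. The median log2 fold change of the 8 genes was 0.11, and that of all genes was 0.01. In whole tissue, a change in the number of cells of a type and a change in RNA per cell cannot be told apart.

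Myh11 (ENSMUSG00000018830; chromosome 16, 14194535 to 14291372, minus strand, GRCm38) encodes the motor protein of the smooth muscle thick filament. The WT mice had 11.3, 12.8 and 13.3 CPM, the h1 mice 12.7, 11.05 and 11.1, the h2 mice 15.4, 11.1 and 12.3, and the h4 mice 14.9, 17.8 and 15.4. Each h4 library exceeded every WT and h1 library, while h2 replicate 1 reached the h4 range. Group means were 12.5 ± 1.01 CPM for WT, 11.6 ± 0.936 for h1, 12.9 ± 2.21 for h2 and 16.03 ± 1.57 for h4 (SD, n = 3 each). Against WT the log2 fold change in h4 was 0.36 (SE 0.10, 95% interval 0.15 to 0.58, edgeR adjusted p = 0.0419). Set against h1, the h4 level of Myh11 was also higher (log2 fold change 0.47, SE 0.10, edgeR adjusted p = 0.00965). Against h2 the log2 fold change was 0.33 (adjusted p = 0.0785), which did not pass. In h1 and h2 against WT it was -0.10 and 0.03 (adjusted p = 0.826 and 0.944).

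The rise of Myh11 in h4 over WT sat close to the threshold. It was lost with DESeq2 (adjusted p = 0.063), with Xist as a covariate (log2 fold change 0.32, adjusted p = 0.0854), and in 8 of 12 fits that left out 1 library. Those 8 left out WT replicate 1 (adjusted p = 0.225), WT replicate 2 (0.111), h1 replicate 2 (0.0533), h1 replicate 3 (0.0558), h2 replicate 3 (0.0518), h4 replicate 1 (0.0609), h4 replicate 2 (0.176) or h4 replicate 3 (0.0842), with log2 fold changes of 0.28 to 0.41 over all 12. Calls over all genes in h4 against WT ran from 230 to 1111 in the 12 fits, where all libraries gave 751. The rise over h1 ended only without h1 replicate 2 (0.0582) or h1 replicate 3 (0.0596) among the leave-outs, and held with the Xist covariate. Among the Xist-high libraries alone, a setting chosen after the data were seen, the log2 fold change of Myh11 in h4 was 0.28 against WT (adjusted p = 0.116, 2 libraries against 3) and 0.25 against h1 (0.461, 2 against 1). Among the Xist-low libraries it was 0.68 against h1 (adjusted p = 0.0319, 1 library against 2). A lone library is assumed in these fits to vary like the other groups.

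Acta2 (ENSMUSG00000035783; chromosome 19, 34241090 to 34255590, minus strand) encodes smooth muscle alpha-actin, the thin filament partner of this myosin. It lies 15.1 Mb from Rorb on the same chromosome. Its promoter is shown because its CArG boxes are the textbook sites through which SRF acts on contractile genes. The windows below are from RefSeq on GRCm38.p6, minus strand, written 5′ to 3′. Capitals mark a CArG match in the first 2 and a TATA-like stretch in the third.
Acta2 upstream element: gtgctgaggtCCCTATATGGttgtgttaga
Acta2 downstream element: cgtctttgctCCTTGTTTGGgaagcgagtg
Acta2 TATA stretch: agagcaaggggCTATATAAcccttcagcgt
They lie at chr19:34255438-34255467, chr19:34255388-34255417 and chr19:34255348-34255377, inside the span that GENCODE M21 gives to Acta2. From the first capital to the RefSeq transcript start the distances were 84, 34 and -7 bases, so the TATA-like stretch begins downstream of that start. Both CArG matches carry 1 mismatch in their 6 central bases, a tolerance set after this sequence was seen. On that rule, 9.98% of 32851 promoter windows of 300 bases held at least 1 CArG match and 0.822% held at least 2. The element reads as a match on both strands alike. The promoter table held windows for Acta2, Vtn, Rgs5, Abcc9 and Anpep, and of these 5 Acta2 alone had a match. Myh11, Tagln and Pdgfrb were not searched. Among 15 other smooth muscle genes with a window, Myl9 and Srf each had 2 matches and Mrtfa had 1.

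Acta2 stood at 9.32, 10.9 and 10.3 CPM in the WT mice, 10.6, 8.90 and 10.3 in the h1 mice, 11.8, 10.2 and 10.8 in the h2 mice, and 12.2, 12.3 and 12.3 in the h4 mice. The h4 libraries were close together and above all 9 others. The log2 fold change in h4 was 0.27 against WT (SE 0.09, 95% interval 0.08 to 0.46), with an adjusted p of 0.0993 by edgeR, which did not pass. Against h1 it was 0.31 (adjusted p = 0.0553) and against h2 0.17 (adjusted p = 0.358). Other muscle actin genes are close in sequence, and pairs that match several genes were shared among them, so the Acta2 value is uncertain by that sharing. Of those genes, Actg2 and Actc1 were at 0.0918 and 0.0548 CPM in h4, and levels of the rest are not given here.

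Tagln (ENSMUSG00000032085; chromosome 9, 45929619 to 45936058, minus strand) encodes transgelin, an actin-binding protein of smooth muscle. Its WT libraries spread most of any gene and group here, at 5.06, 6.00 and 8.96 CPM. The h1 libraries had 6.77, 6.70 and 6.85 CPM, those of h2 7.80, 8.33 and 7.55, and those of h4 7.97, 9.07 and 9.39. WT replicate 3 thus overlapped with h4, although all h4 and h2 libraries were above all h1 libraries. The log2 fold change in h4 against WT was 0.41 (SE 0.14, edgeR adjusted p = 0.121), larger than that of Myh11 and not called. The value turned on single WT libraries. Without WT replicate 3 it was 0.67 (adjusted p = 0.000921) and without WT replicate 1 it was 0.24 (0.475). In h2 it was 0.25 (adjusted p = 0.535), against 0.51 without WT replicate 3 (0.0249) and 0.08 without WT replicate 1 (0.917). Over all genes, 1111 were called in h4 and 348 in h2 without WT replicate 3, and 230 and 18 without WT replicate 1. With all libraries 751 and 112 were called. With no low-count filter Tagln was called in h4 (0.40, adjusted p = 0.0365). WT replicate 3 had the highest sum of 5 haemoglobin and red cell genes, 567 CPM against 251 and 292 in the other WT libraries, and the part of blood content in Tagln was not tested. Of the exonic bases of Tagln, 62.4% overlap an antisense gene, Gm48529, and 5.4% the opposite gene Pcsk7. The library kit does not mark strand, so reads of the 2 strands cannot be told apart.

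**Figure D1:**
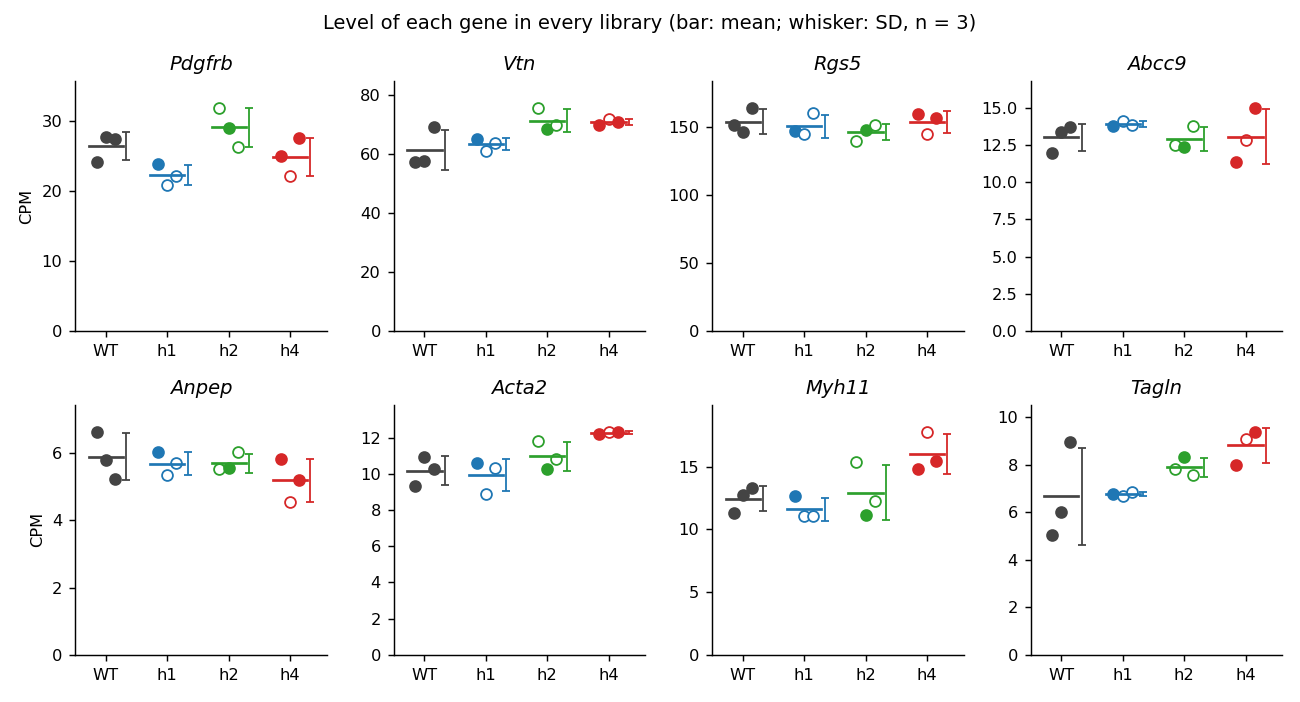
Level of each gene in CPM (vertical axis, from 0) in every library, by genotype, with the mean as a bar and the SD as a whisker (n = 3). Filled points are libraries with Xist above 100 CPM and open points are the others. In h4, Acta2 and Myh11 lie above every WT library, while Rgs5 lies at 140 to 164 CPM throughout.

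Vtn (ENSMUSG00000017344; chromosome 11, 78499091 to 78502324, plus strand) encodes vitronectin, an integrin ligand of the matrix that pericytes supply in brain. It measured 57.4, 57.7 and 69.2 CPM in the WT mice, 65.1, 61.1 and 63.6 in the h1 mice, 75.6, 68.3 and 69.9 in the h2 mice, and 69.8, 71.8 and 70.95 in the h4 mice. The lowest h4 library was above the highest WT library, replicate 3, by a narrow margin, and h2 overlapped with WT only through that library. The log2 fold change was 0.21 in h4 (SE 0.06, 95% interval 0.09 to 0.33, edgeR adjusted p = 0.0424). In h2 it was also 0.21, with an adjusted p of 0.0974, and in h1 it was 0.04 (adjusted p = 0.871). Levels in h4 and h2 differed by a log2 fold change of 0.00 (95% interval -0.12 to 0.11), so the 2 mutants were not shown to differ. Without WT replicate 3, Vtn was called in h4 (0.29, adjusted p = 0.000503) and in h2 (0.30, adjusted p = 0.00143). Calls over all genes also rose in that fit, to 1111 in h4 and 348 in h2, from 751 and 112 with all libraries.

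The call of Vtn in h4 was kept by DESeq2 but lost with Xist as a covariate, where the log2 fold change was 0.20 (adjusted p = 0.0765). It was also lost in 9 of 12 fits without 1 library, those of WT replicate 1 (0.235), WT replicate 2 (0.212), any h1 library (0.0536 to 0.0641), h2 replicate 3 (0.0583) and any h4 library (0.105 to 0.129). The log2 fold changes over the 12 fits were 0.16 to 0.29, and calls over all genes ran from 230 to 1111, where all libraries gave 751. None of 7 genes for integrins and other partners of vitronectin was called by edgeR in any mutant against WT, with 0, 2 and 1 at an unadjusted p under 0.05 in h1, h2 and h4. In h4, 1 of the 7 lay above WT without overlap and 0 below, against 21.2% of all genes in either direction. The 7 genes summed to 392 to 399 CPM in h4 and 371 to 384 in WT, also without overlap. Among them, Itgav, the alpha subunit of vitronectin receptors, was at 110.4 CPM in h4 and 104.9 in WT (edgeR adjusted p = 0.377), and Itgb8 was at 119.8 and 112.9 CPM (adjusted p = 0.172).

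Pdgfrb (ENSMUSG00000024620; chromosome 18, 61045150 to 61085061, plus strand), the receptor for PDGF-B, was called between 2 of the mutants and was not called against WT in any. WT libraries had 24.1, 27.7 and 27.3 CPM, h1 libraries 23.8, 20.8 and 22.1, h2 libraries 31.8, 29.01 and 26.3, and h4 libraries 24.9, 22.1 and 27.5. All h1 libraries were below all WT and h2 libraries. The order of the means was h2 (29.03 ± 2.78 CPM, SD, n = 3), WT (26.4 ± 1.96), h4 (24.8 ± 2.71) and h1 (22.3 ± 1.48). Of the pairs in that order, h2 against h1 passed (log2 fold change 0.38, SE 0.08, 95% interval 0.21 to 0.54, edgeR adjusted p = 0.0252). Against WT the log2 fold change was -0.24 in h1 (95% interval -0.41 to -0.08, edgeR adjusted p = 0.24), 0.13 in h2 (adjusted p = 0.568) and -0.09 in h4 (adjusted p = 0.651). Pdgfrb was the 1 member called in h2 against h1, where 0.722% of all genes were called. The libraries of 3 members, Pdgfrb, Tagln and Vtn, did not overlap there, all higher in h2, against 15.5% of all genes.

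That difference held with DESeq2 (adjusted p = 0.0134) and the Xist covariate (0.0118). It was lost without h1 replicate 2 (0.188), h1 replicate 3 (0.0841), h2 replicate 1 (0.158) or h2 replicate 2 (0.116), with log2 fold changes of 0.31 to 0.45 over the 12 leave-outs. Neither ligand of the receptor passed between h2 and h1, with Pdgfb at 15.9 CPM in both (edgeR adjusted p = 0.9997) and Pdgfd at 9.53 and 11.1 CPM (0.452). Pdgfra, the sister receptor, which marks oligodendrocyte precursors and fibroblasts, went the other way and was lower in h2 than in h1, at 67.0 against 75.9 CPM (log2 fold change -0.18, adjusted p = 0.0269). Of 16 endothelial genes, 1 was called higher in h2 than in h1, 1 lower and 14 were not called, where 0.722% of all genes were called. Cldn5, a tight junction claudin, was higher in h2 by a log2 fold change of 0.81, and Mfsd2a, a lipid transporter of the blood-brain barrier, was lower by -0.71 (adjusted p = 0.00107 and 0.000279). Against WT, Cldn5 (log2 fold change -0.57) and the endothelial cadherin gene Cdh5 (-0.34) fell in h1 (edgeR adjusted p = 0.0115 and 0.0183). Mfsd2a fell in h2 (-0.37, edgeR adjusted p = 0.0471). These were 2 of 16 genes in h1 and 1 of 16 in h2, where 0.625% and 0.679% of all genes were called. The 16 genes summed to 538 to 548 CPM in h2 and 586 to 612 in h1. Their median log2 fold change in h2 against h1 was 0.03, and 7 of 16 were below 0. Without overlap, 6 were higher and 3 lower in h2, against 15.5% of all genes in either direction. The part of these genes in the Pdgfrb difference was not tested.

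**Figure D2:**
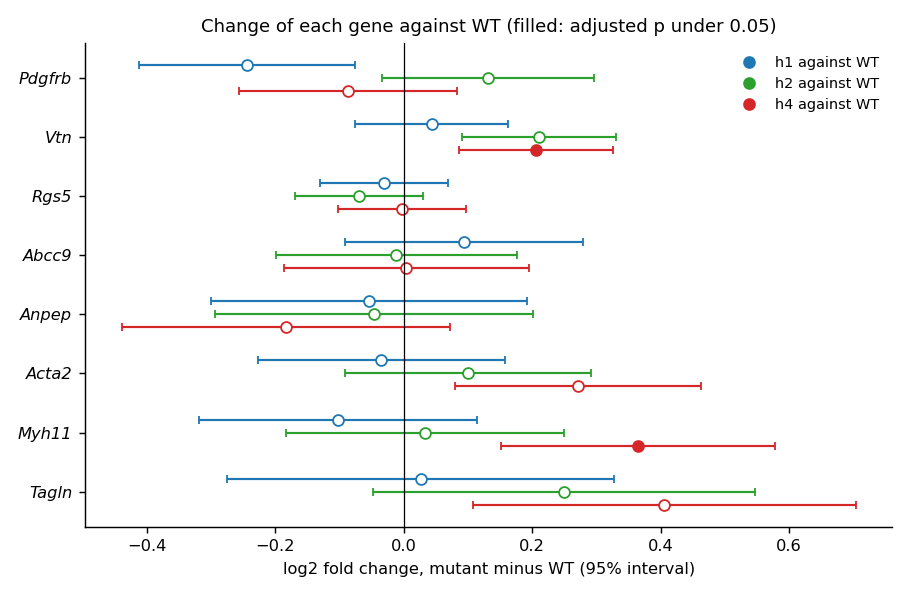
Log2 fold change of each gene (horizontal axis, mutant minus WT) with its 95% interval from edgeR, for h1, h2 and h4. Filled points passed an adjusted p of 0.05, which Vtn and Myh11 did in h4, and the intervals of Rgs5 lie between -0.17 and 0.10.

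Rgs5 (ENSMUSG00000026678; chromosome 1, 169655501 to 169695813, plus strand), a regulator of G protein signalling and a much used pericyte marker, varied least. Its libraries ranged from 140 to 164 CPM, with a coefficient of variation of 4.92% over all 12, against 17.4% for Tagln and 16.4% for Myh11. WT averaged 154 ± 9.16 CPM, h1 150.6 ± 8.35, h2 146.5 ± 5.90 and h4 153.7 ± 7.79 (SD, n = 3 each), and every mutant group overlapped with WT. Folds against WT were 0.979 in h1 (95% interval 0.913 to 1.05), 0.953 in h2 (0.889 to 1.02) and 0.998 in h4 (0.931 to 1.07), with edgeR adjusted p of 0.892, 0.636 and 0.988. Other regulators of this family that act on vascular or neuronal receptors gave no call against WT, with Rgs4 at 437 CPM and Rgs2 at 49.8 CPM in h4 (adjusted p = 0.616 and 0.0843).

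Abcc9 (ENSMUSG00000030249; chromosome 6, 142587862 to 142702315, minus strand) encodes SUR2, the sulfonylurea receptor subunit of the vascular ATP-sensitive potassium channel. Its level in the WT mice was 11.98, 13.4 and 13.7 CPM, in the h1 mice 13.7, 14.1 and 13.8, in the h2 mice 12.5, 12.4 and 13.8, and in the h4 mice 11.4, 12.8 and 14.98. The h1 libraries were just above all WT libraries, yet the log2 fold change was 0.09 (95% interval -0.09 to 0.28, edgeR adjusted p = 0.813). In h2 and h4 it was -0.01 and 0.00. Its pore partner Kcnj8 was at 3.57 to 4.11 CPM by group mean and was not called in any comparison with WT (adjusted p = 0.746, 0.782 and 0.759 in h1, h2 and h4), nor were the neuronal and endocrine subunits Kcnj11 and Abcc8. None of these 3 had an unadjusted p under 0.05 there. An antisense gene, 5330439B14Rik, overlaps 1.9% of the exonic bases of Abcc9.

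Anpep (ENSMUSG00000039062; chromosome 7, 79821803 to 79861059, minus strand) encodes CD13, a membrane aminopeptidase, and lies 7.6 Mb from Tyr, whose allele marks the h2 background. It was the lowest of the 8, with 6.65, 5.81 and 5.25 CPM in the WT mice, 6.03, 5.34 and 5.71 in the h1 mice, 5.52, 5.57 and 6.03 in the h2 mice, and 5.84, 4.56 and 5.20 in the h4 mice. All groups overlapped with WT. The folds against WT were 0.963 in h1 (95% interval 0.812 to 1.14), 0.968 in h2 (0.816 to 1.15) and 0.880 in h4 (0.737 to 1.05), with edgeR adjusted p of 0.934, 0.931 and 0.475. Enpep, the aminopeptidase A of pericytes, was at 4.56 CPM in h4 and 5.20 in WT (adjusted p = 0.570).

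None of the 8 genes was called by edgeR or by DESeq2 in h1 against WT, where 0.625% of all genes were called by edgeR, or in h2 against WT, where 0.679% were. At an unadjusted p under 0.05 there was 1 member in each, Pdgfrb in h1 and Vtn in h2, where all genes had 9.82% and 11.5%. Pdgfrb (lower) and Abcc9 (higher) were the 2 members whose h1 libraries did not overlap with WT, against 14.5% of all genes. In h2 there was no such member, against 15.6%. The mean of the 3 mutants against WT gave no call with edgeR or DESeq2, where 1.1% of all genes were called by edgeR, and 1 member, Vtn, had an unadjusted p under 0.05, against 12.5% of all genes (log2 fold change 0.15, adjusted p = 0.135). These comparisons share the WT libraries. Between mutants, h4 against h1 gave 1 call, Myh11, where 4.64% of all genes were called, and 4 members had libraries that did not overlap, all higher in h4 (Myh11, Acta2, Tagln and Vtn), against 24.1% of all genes. In h4 against h2 no member was called by edgeR or DESeq2, where edgeR called 3.22% of all genes, and 2, Pdgfrb and Myh11, had an unadjusted p under 0.05, against 16.8%. Acta2 was the 1 member without overlap there, against 21.6%.

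Other genes linked to these cells were taken as 2 lists, and whole brain does not show which cells give their RNA. The smooth muscle list includes the regulators Srf and Mrtfa, whose changes therefore cannot be assigned to smooth muscle. Of 18 other smooth muscle genes 16 were tested, and in h4 against WT 1 rose, 1 fell and 14 did not pass, where 4.55% of all genes were called. Tpm2, the beta-tropomyosin of the thin filament, rose from 6.79 to 9.07 CPM (log2 fold change 0.42, SE 0.11, edgeR adjusted p = 0.0287). Mrtfa, a coactivator of SRF, fell from 42.5 to 35.1 CPM (log2 fold change -0.28, SE 0.07, edgeR adjusted p = 0.0156), and was also lower in h4 than in h1 (-0.32, adjusted p = 0.0052). Srf itself was at 36.8 CPM in h4 and 35.9 in WT (adjusted p = 0.803). The libraries of Tpm2, Cnn1, Myl9 and Itga8 lay above WT without overlap, 4 of 16 genes against 10.8% of all genes. A further 1 lay below WT without overlap, against 21.2% of all genes in either direction. In h4, 4 of the 16 had an unadjusted p under 0.05 by edgeR, against 17.6% of all genes. The median log2 fold change of the list was 0.12, and 4 of 16 values were below 0, against 46.8% of all genes tested. Myl9, a regulatory light chain, was at 14.5 CPM in h4 and 12.2 in WT (adjusted p = 0.161). In h1 and h2 none of these 16 genes was called by edgeR against WT, with 0 and 1 at an unadjusted p under 0.05 and medians of 0.02 in both.

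Of 14 other pericyte genes, none was called by edgeR in any mutant against WT, and 1, 0 and 0 had an unadjusted p under 0.05 in h1, h2 and h4. Their sum per library ran from 81.6 to 92.8 CPM for h4, 79.6 to 86.4 for h1, 82.3 to 88.3 for h2 and 85.8 to 87.2 for WT. Notch3, the Notch receptor of mural cells, was higher in h4 than in h1, at 21.1 against 17.05 CPM (log2 fold change 0.31, SE 0.08, edgeR adjusted p = 0.0233), the 1 call of this list between mutants. It was at 19.3 CPM in WT, against which neither mutant passed (adjusted p = 0.407 in h4 and 0.449 in h1). The proteoglycan gene Cspg4, at 16.3 CPM in h4 and 17.8 in WT, and Atp13a5, at 18.6 and 16.8 CPM, were not called (adjusted p = 0.408 and 0.372).

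Markers of other cells moved in the same comparisons, to be read against the shares of all genes called (in h4 against WT 4.55% in either direction and 1.64% higher). In h4 against WT, 2 of 9 fibroblast genes rose and none fell, the collagen gene Col3a1 (14.03 to 18.25 CPM, log2 fold change 0.38, edgeR adjusted p = 0.00823) and Ogn (12.9 to 17.6 CPM, 0.45, adjusted p = 0.00406). The summed fibroblast list was 247 to 276 CPM in h4 and 219.5 to 249 in WT. Of 5 astrocyte genes 3 rose, with Gfap at 395 CPM against 304, while their sum was 3935 to 4084 CPM in h4 and 3991 to 4094 in WT. None of 16 endothelial genes was called by edgeR in h4 (1 at an unadjusted p under 0.05), with sums of 564 to 574 CPM against 562 to 590.5. None of 5 blood genes was called (0 at an unadjusted p under 0.05), with sums of 175 to 413 CPM in h4 and 251 to 567 in WT. Actc1 and Ckm, markers of heart and skeletal muscle, were at 0.0548 CPM in h4. Of the 5 genes of that list 2 were tested, and none was called by edgeR in h4 against WT. Of these 2, 1 lay above WT without overlap, as did 10.8% of all genes, and 1 had a log2 fold change below 0. The list summed to 18.3 to 23.2 CPM in h4 and 18.1 to 19.05 in WT. In h4 against h1, Col3a1 (log2 fold change 0.49) and Dcn (0.25) were higher among the fibroblast genes, and Cldn5 was higher (0.40) and Mfsd2a lower (-0.51) among the endothelial genes, all called by edgeR. Among the astrocyte genes Slc1a3 was higher (0.19) and Slc1a2 lower (-0.24), and Syt1 was lower among the 3 neuron genes (-0.14), also called. The part of these cells in the higher Myh11 and Vtn values was not tested.

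The oligodendrocyte genes Mbp and Mog, which encode myelin proteins, were highest in h1. Mbp averaged 5210 CPM in h1, against 4128 in WT, 4655 in h2 and 4479 in h4. Against WT, Mbp (log2 fold change 0.34, edgeR adjusted p = 0.000681) and Mog (0.30, adjusted p = 0.0021) rose in h1, and Mbp rose in h2 (0.17, adjusted p = 0.0459). In h4 against h1, Mbp (-0.22, adjusted p = 0.00365) and Mog (-0.20, adjusted p = 0.0137) were lower. In h2 against h1 neither was called (Mbp -0.16, adjusted p = 0.0575, and Mog -0.13, adjusted p = 0.257), though both were lower without overlap. These are the comparisons in which Myh11 and Pdgfrb were called, and the part of oligodendrocyte content in them was not tested.

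**Figure D3:**
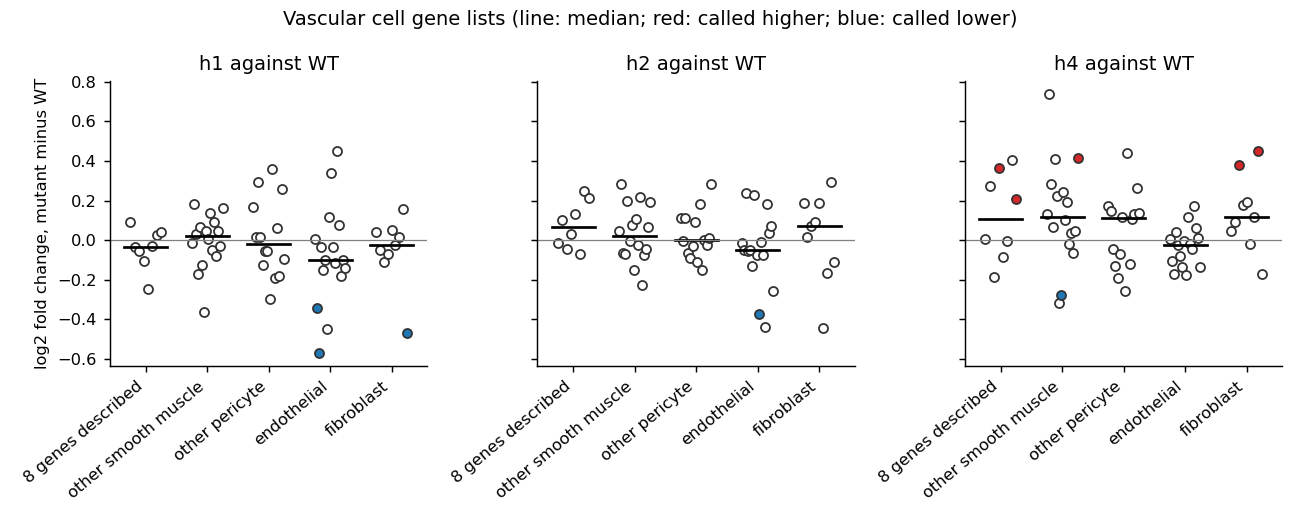
Log2 fold change against WT (vertical axis) of the 8 genes and of 4 further lists of vascular and fibroblast genes in h1, h2 and h4, 1 point per tested gene, with the median as a line. Called genes are red when higher and blue when lower, and in h4 they include Myh11 and Vtn, Tpm2 and Mrtfa, and 2 fibroblast genes.

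Over the 12 libraries, the members did not vary as 1 block. Of 28 pairs, 3 passed by Pearson's r and 2 by Spearman's rho at a Benjamini-Hochberg adjusted permutation p under 0.05 (2-sided, 100000 resamples). The libraries were permuted without regard to genotype, so shifts that 2 genes share between genotypes enter these p-values. No p was computed for r on deviations from the genotype means. Myh11 and Acta2 were the closest pair, with r = 0.878 (permutation p = 0.00019, adjusted p = 0.00392) and rho = 0.874 (p = 0.00047, adjusted p = 0.0132). Without h4 replicates 2 and 3, farthest from the median of Myh11, r was 0.838, and on deviations from the genotype means it was 0.702. Tagln followed Vtn with r = 0.86 (permutation p = 0.00028, adjusted p = 0.00392) and rho = 0.797 (p = 0.00305, adjusted p = 0.0427). Without WT replicates 1 and 2 that r was 0.693, and on deviations 0.786. Tagln and Anpep ran in opposite directions, with r = -0.763 (permutation p = 0.0044, adjusted p = 0.0411) and rho = -0.699 (p = 0.0148, adjusted p = 0.0829), and r = -0.627 without the same 2 libraries and -0.725 on deviations. For the pericyte markers Pdgfrb and Rgs5 no relation passed, with r = -0.105 and rho = -0.014 (permutation p = 0.743 and 0.974, adjusted p = 0.891 and 0.991).

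**Figure D4:**
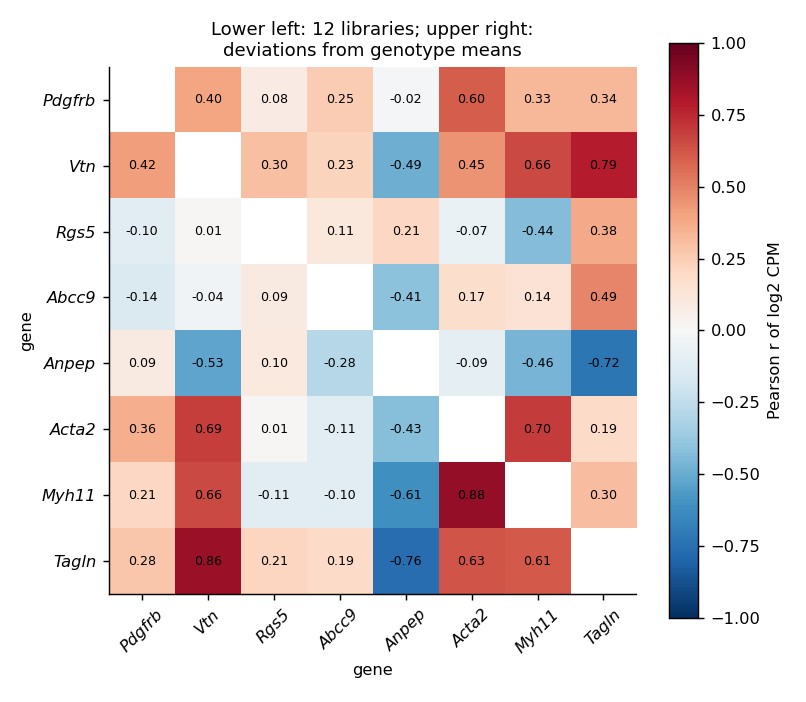
Pearson's r of log2 CPM between each pair of the 8 genes (both axes), over 12 libraries in the lower left and on deviations from the genotype means in the upper right. Red is positive and blue is negative, and Myh11 with Acta2 (0.878) and Tagln with Vtn (0.86) stand out, while Rgs5 has no r beyond 0.212 in size over the 12 libraries.

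The genes most like each set were ranked by Pearson's r with the set's mean log2 CPM over the same 12 libraries, among 13692 genes of at least 1 CPM. For the pericyte markers these were Gbp2b (r = 0.956), Tarbp2 (0.921), Mettl25 (0.897), Eml1 (0.895) and Cdc42ep1 (0.886). For the contractile genes they were Capns1 (0.946), Mien1 (0.929), Kctd14 (0.923), Echs1 (0.908) and Fads1 (0.901). None of these 10 is in the lists of vascular genes used here. With so many genes ranked over 12 points, high values of r are common, and they are given as a description only.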

How the data were processed

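The authors deposited 1 RSEM gene table per library, made with Bowtie2 2.2.0 and RSEM 1.2.12, per the submitters' processing notes. Their genome build and annotation are not given in these sources. Expected counts, as deposited, are estimated read pairs per gene, with pairs that match several genes shared among them. The deposited TPM values are scaled to length and library total by the authors. The FPKM values and the transcript lengths deposited by the authors entered no test. Of the 38924 identifiers, 37607 were found in GENCODE M21 (GRCm38), which gave symbols and positions.

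Expected counts were rounded and tested with edgeR 4.0.16 in R 4.3.3 (quasi-likelihood, robust, TMM factors 0.991 to 1.012), with 1 mean per genotype over all 12 libraries. The low-count filter left 16493 genes, and p-values were Benjamini-Hochberg adjusted over them. The SE is the log2 fold change divided by the square root of F. DESeq2 1.42.0 and limma 3.58.1 served as alternatives. Replicates are separate mice, 3 for each genotype, according to the design text. Pairs of libraries of 1 genotype differed by more than sampling noise (chi-square per degree of freedom 2.38 to 4.47). Tested on simulated counts for h1 against WT with 16493 genes, the fit found 88 of 100 genes changed 1.5-fold and 99 of 100 changed 2-fold, with 13 false calls. The largest change of a member was 1.38-fold, for Myh11 in h4 against h1, and changes of that size or less were not simulated. The members, lists and tests were chosen with earlier results of these data known. The rule for naming took all 8 members, up to 4 called genes per list, or up to 2 of highest CPM where none was called, and the 5 genes most like each set; Srf, Myl9, Notch3, Kcnj8, Enpep, Pdgfb, Rgs2, Cnn1 and Itga8 are named beyond it as partners of members or for their libraries, after their values were seen. A member of a marker list is not reported here.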

Additional observations from a re-analysis of the deposited data

Results flagged for a closer look

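Between mutants, 2 members differed by a test of the difference itself. Pdgfrb was higher in h2 than in h1 (log2 fold change 0.38, 29.03 against 22.3 CPM, edgeR adjusted p = 0.0252), with h2 above and h1 below WT on average and neither called against it. For h4 set against h1, Myh11 was higher (log2 fold change 0.47, 16.03 against 11.6 CPM, adjusted p = 0.00965).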

How the results depend on the processing

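No member changed sign with a call on either side in the settings tried. With no low-count filter, 3 members were called in h4 against WT (Tagln added), 1 in h2 against WT, 1 for the mean of the mutants, 2 in h2 against h1, 2 in h4 against h1 and 2 in h4 against h2 (1 of these, Pdgfrb, lower). With Xist as a covariate, the 2 calls in h4 against WT became 0. With only the groups compared in the fit, there was 1 in h4 against WT and 3 in h4 against h1. DESeq2 kept 1 of 2 in h4 against WT. limma on log2(TPM + 0.1) gave 0 in h4 against WT, 0 in h2 against h1 and 0 in h4 against h1. Fits of Xist-high libraries alone, added after the data were seen, gave 0 in h4 against WT, h2 against h1 and h4 against h1, and of Xist-low libraries alone 0 in h2 against h1 and 1 in h4 against h1 (Myh11). They use fewer libraries, with 1 h1 and 1 h2 library among the Xist-high and 1 h4 library among the Xist-low. Without any 1 library, the members called numbered 0 in h1 against WT, 0 to 2 in h2 against WT, 0 to 3 in h4 against WT, 0 to 2 for the mean of the mutants, 0 to 1 in h2 against h1, 0 to 3 in h4 against h1 and 0 to 1 in h4 against h2. Why calls were lost was not tested. Over all genes and every setting, calls ran from 0 to 236 in h1 against WT (103 as reported), 10 to 348 in h2 against WT (112), 152 to 1111 in h4 against WT (751), 8 to 505 for the mean of the mutants (181), 4 to 290 in h2 against h1 (119), 88 to 1067 in h4 against h1 (765) and 93 to 844 in h4 against h2 (531). The labels do not state that the final numbers in the titles of h1 and h2 pair the mice. Same-numbered libraries had deviations correlated at -0.182, -0.14 and 0.04, and the other pairs at -0.203 to 0.297. With 3 libraries per group, these values cannot decide whether mice were paired. With the title numbers as a replicate block, 1 member was called in h2 against h1 (Pdgfrb, log2 fold change 0.38), and 204 genes in place of 193 without the block in the same 6 libraries. Depth was lowest for Anpep and Tagln, the latter with 108 to 205 counts per library.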

Other observations

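Systems around the 8 genes gave few calls. Of 5 PDGF ligand and receptor genes, 13 genes of endothelial to mural signalling, 13 genes of vascular tone and 6 ectopeptidase genes, none was called in h1, h2 or h4 against WT with edgeR. At an unadjusted p under 0.05, h1 had 1, 4, 2 and 0 of them, h2 had 2, 0, 0 and 0, and h4 had 0, 1, 4 and 1. The shares of all genes were 9.82% in h1, 11.5% in h2 and 17.6% in h4. Of the 5 PDGF genes, 3 were lower and 0 higher in h2 without overlap with WT, against 15.6% of all genes in either direction. Of the 13 genes of endothelial to mural signalling, 3 were lower and 1 higher in h1 without overlap, against 14.5%. In h4 against h1, 4.64% of all genes were called. There 1 of the 5 PDGF genes was called lower, 1 of the 13 genes of endothelial to mural signalling higher, and no ectopeptidase gene. Of the 13 genes of vascular tone, the endothelin receptor Ednrb was higher, at 117 against 86.1 CPM (log2 fold change 0.44, edgeR adjusted p = 0.00921). Rgs4 was lower, at 437 against 486 CPM (-0.15, edgeR adjusted p = 0.0329). Of 6 microglia and macrophage genes, 1 was called in h4 against h1, against 4.64% of all genes. It was the perivascular macrophage receptor Mrc1, higher at 8.66 against 6.21 CPM (log2 fold change 0.48, edgeR adjusted p = 0.0143). Of the 6 genes, 3 had a log2 fold change below 0. Their sums overlapped, at 101 to 105 CPM in h4 and 101 to 104 in h1.

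Fitted beside genotype, the difference between Xist-high and Xist-low libraries was not called for any of the 8 genes by edgeR, and the smallest unadjusted p was 0.0617, for Pdgfrb (log2 difference 0.13, higher in Xist-high libraries). This test was added after the data were seen.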
